A study of Homo sapiens with 22 samples.

Results

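The baseline expression of 6 neuroblastoma cell lines that express MYCN was compared in normoxia. IMR-32, SK-N-SH and GI-LI-N, called here the GI-LI-N group, were set against LAN-1, SK-N-BE2(C) and SK-N-F1, called the LAN-1 group. The members are the 6 normoxic arrays of these lines among the 22 arrays of the study, which profiled 11 neuroblastoma lines with 1 array per line after 18 h at 20% O2 (normoxia) and 1 after 18 h at 1% O2 (hypoxia). All 6 are established human tumor lines grown in the same base medium, without transgene or drug. Probesets were kept when their mean signal on the 6 arrays was at least 100, which left 26506 of 54675 probesets and 11601 of 19775 genes. Each line was represented by 1 culture, so the error below is the spread between lines of a group and not between repeats of a line. The lines were divided with their likeness on these arrays known, so the GI-LI-N group was chosen to have a small spread. The p-values and counts of calls below rest on that spread, so the p-values can be too small. Whether the arrays of the GI-LI-N group come from independent lines was not tested.

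Neuroblastoma arises from precursors of the sympathetic nervous system and adrenal medulla. Cells of this lineage make noradrenaline from tyrosine through the enzymes TH, DDC and DBH, load it into dense core vesicles that also hold granins, and keep a set of lineage transcription factors active, among them PHOX2A, GATA3, HAND2 and ISL1. MYCN, a member of the MYC family of transcription factors, is the oncogene most often amplified in this tumor. Lines in culture range from neuroblastic cells with these features to flat, substrate adherent cells with mesenchymal genes.

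Signals are listed in a fixed order of lines, which is GI-LI-N, IMR-32, then SK-N-SH for the first group and SK-N-BE2(C), SK-N-F1, then LAN-1 for the other. They are MAS5 intensities in arbitrary units, as deposited. Differences are the mean log2 signal of the GI-LI-N group minus that of the LAN-1 group after division by the array median, so that positive values are higher in the GI-LI-N group. Folds are given with signals under 50 set to 50, because low signals carry little information and no detection calls were used here.

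The 2 genes with the largest such folds in each direction were LRATD1 and NHLH2, higher in the GI-LI-N group, and RGS5 and TFAP2B, lower in it. Their promoter windows are shown because these genes set the scale of the differences between both groups. Each window runs from 250 bases before to 50 after the gene start in RefSeq (GRCh38.p14), 5′ to 3′ along the gene, with the CG dinucleotides in capitals. The window of LRATD1 lies at chr2:14632467-14632766 on the plus strand and that of NHLH2 at chr1:115841077-115841376 on the minus strand. RGS5 has its window at chr1:163321686-163321985 on the minus strand and TFAP2B at chr6:50818621-50818920 on the plus strand. For NHLH2 and RGS5, which have 2 windows each in the table, the first one is shown.
LRATD1: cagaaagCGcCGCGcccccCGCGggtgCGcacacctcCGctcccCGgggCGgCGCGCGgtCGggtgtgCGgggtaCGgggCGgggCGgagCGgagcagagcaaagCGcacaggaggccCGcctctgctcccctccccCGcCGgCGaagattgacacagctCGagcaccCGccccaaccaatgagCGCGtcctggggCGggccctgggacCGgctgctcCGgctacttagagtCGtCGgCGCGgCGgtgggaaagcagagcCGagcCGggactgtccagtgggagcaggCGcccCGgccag
NHLH2: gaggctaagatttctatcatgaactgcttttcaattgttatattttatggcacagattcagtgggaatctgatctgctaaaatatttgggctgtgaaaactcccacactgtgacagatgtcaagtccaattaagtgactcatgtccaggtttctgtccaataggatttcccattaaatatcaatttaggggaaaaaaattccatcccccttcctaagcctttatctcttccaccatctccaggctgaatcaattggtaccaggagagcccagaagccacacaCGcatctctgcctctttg
RGS5: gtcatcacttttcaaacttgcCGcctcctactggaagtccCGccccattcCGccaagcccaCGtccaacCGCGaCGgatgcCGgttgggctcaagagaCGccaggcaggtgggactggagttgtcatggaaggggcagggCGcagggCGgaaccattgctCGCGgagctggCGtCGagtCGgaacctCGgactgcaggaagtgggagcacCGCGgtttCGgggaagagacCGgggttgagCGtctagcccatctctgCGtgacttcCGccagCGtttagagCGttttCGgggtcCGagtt
TFAP2B: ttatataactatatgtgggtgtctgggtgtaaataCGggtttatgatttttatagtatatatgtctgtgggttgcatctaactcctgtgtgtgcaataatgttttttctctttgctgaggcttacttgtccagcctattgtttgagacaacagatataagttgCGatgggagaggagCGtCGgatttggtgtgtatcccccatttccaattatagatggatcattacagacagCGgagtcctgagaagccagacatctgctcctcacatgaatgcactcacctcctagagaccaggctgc
The windows hold 39, 1, 28 and 5 CG dinucleotides in that order, so a CG rich and a CG poor window occur in each direction. None of these 4 holds CACGTG, the palindromic E-box letters that MYC family proteins are known to bind, which occur in 7.43% of all 27305 promoter windows of the table and in 10.6% of those of the tested genes. Only 74.1% of the genes called higher and 69.3% of those called lower had a window, so a comparison of the called genes by their windows is void.

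The array medians lay between 69.4 and 102.1, and the 3'/5' signal ratios of the GAPDH and ACTB controls, a sign of RNA integrity, lay between 1.04 and 1.80 on these 6 arrays. MYCN had signals of 43593, 38791 and 33504 in the GI-LI-N group and 55612, 5788 and 33350.0 in the LAN-1 group, against at most 55.3 in the 5 remaining lines. SK-N-F1 was thus the lowest of the 6, and the groups overlapped (log2 difference 0.70, standard error 0.75, adjusted p = 0.705 from limma). Among the remaining lines the paper lists SHEP-21N over-expressing MYCN. The low signals of this probeset thus do not show that those 5 lines lack MYCN. DBH, the enzyme that makes noradrenaline, lay between 348 and 2579 in all 6 lines and at most at 76.1 in the 5 others. TH, the first enzyme of the pathway, had 68.3, 77.1 and 2.75 in the GI-LI-N group and 6808, 149 and 509.8 in the LAN-1 group, so this defining marker was near the floor in the GI-LI-N group. As background, SK-N-SH is known as a line without MYCN amplification, and the signal of its array goes against that. The label was not settled here. Without that array 47 of the 72 called genes named by the selection rule were no longer called. Nearly as many were lost without GI-LI-N (45) or without IMR-32 (46), so this loss is not particular to the SK-N-SH array. Each of these fits has fewer arrays, so the losses do not bear on the SK-N-SH label.

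Markers of other cell types were read on the same arrays. Of 12 Schwann cell markers 8 were on the array and none reached the signal filter, with the sum of their signals between 158 and 418 in the GI-LI-N group and between 189 and 331 in the LAN-1 group. Of 13 fibroblast markers all were on the array, with sums of 5445 to 7160 and 4484 to 11240. In the GI-LI-N group 7 of them were under 100 on every array and in the LAN-1 group 3. Whether cells of another type contributed to any difference below was not tested.

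The question of how alike the lines are was answered by counting, for each pair of arrays, the probesets that differed at least 2-fold. Within the GI-LI-N group the 3 pairs differed at 10.1% to 11.98% of the 26506 probesets. Within the LAN-1 group they differed at 29.5% to 33.9%, and the 9 pairs between both groups at 23.8% to 32.4%. By this count the LAN-1 group lines lay in the same range from each other as from the GI-LI-N group. The correlation of their log2 signals ran higher, with Pearson's r of 0.77 to 0.85 within the LAN-1 group against 0.72 to 0.81 between groups, and 0.94 to 0.95 within the GI-LI-N group, across probesets, which are not independent. The pair SK-N-BE2(C) and LAN-1 depended on the scaling, at 30.4% after division by the median, 23.6% as deposited and 21.6% after quantile normalization, the last below all 9 pairs between groups (24.1% to 31.5%). The nearest pair between groups was IMR-32 and SK-N-BE2(C), with 6298 probesets, and the farthest IMR-32 and SK-N-F1, with 8591. For scale, the hypoxic and normoxic arrays of the same line differed at 4.62% to 8.03%. The median SD over the probesets was 0.31 on the log2 scale in the GI-LI-N group and 0.56 in the LAN-1 group.

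**Figure D1:**
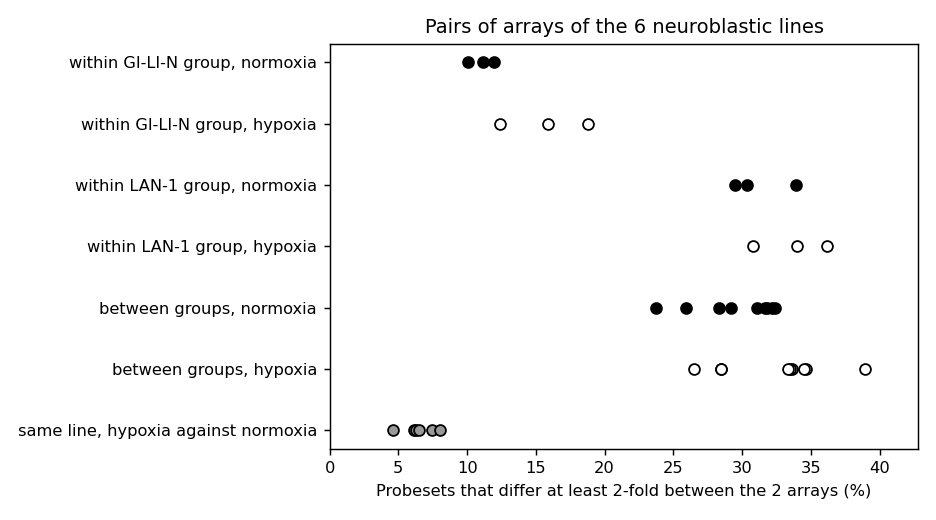
Share of the 26506 probesets that differed at least 2-fold (horizontal axis, %) for every pair of arrays of the 6 lines, 1 point per pair, filled for normoxia, open for hypoxia and grey for both arrays of 1 line. Pairs within the GI-LI-N group in normoxia sit between 10.1% and 11.98%, those within the LAN-1 group between 29.5% and 33.9%, and pairs between groups from 23.8% to 32.4%.

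Between the groups, limma called 409 of 11601 genes different (3.53%) at an adjusted p under 0.05 and at least 2-fold, 197 of them higher in the GI-LI-N group (1.7%) and 212 lower (1.83%). Among probesets 749 of 26506 were called (2.83%). In all 409 genes the signals of both groups were apart after division by the array median, as they were in 2732 of all 11601 genes (23.5%). The median difference over all genes was -0.03 after division by the array median, which fixes it near 0, and 0.07 with the values as deposited. With the arrays of the GI-LI-N group averaged into 1 line, which leaves 1 sample on that side, 0 genes were called by limma, while 603 were 2-fold apart or more with an unadjusted p under 0.05, and the methods' t-test, with the lines kept separate, called 1 gene (1122 by the same unadjusted limit). Leaving out 1 line gave 104 genes without SK-N-SH, 128 without IMR-32, 135 without GI-LI-N, 258 without LAN-1, 526 without SK-N-F1 and 619 without SK-N-BE2(C). Of 72 called genes named by the selection rule, 25 to 27 were still called without 1 line of the GI-LI-N group and 44 to 68 without 1 line of the LAN-1 group, and none changed sign. As whole cultures were measured, fewer cells of a type and less RNA per cell cannot be told apart.

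**Figure D2:**
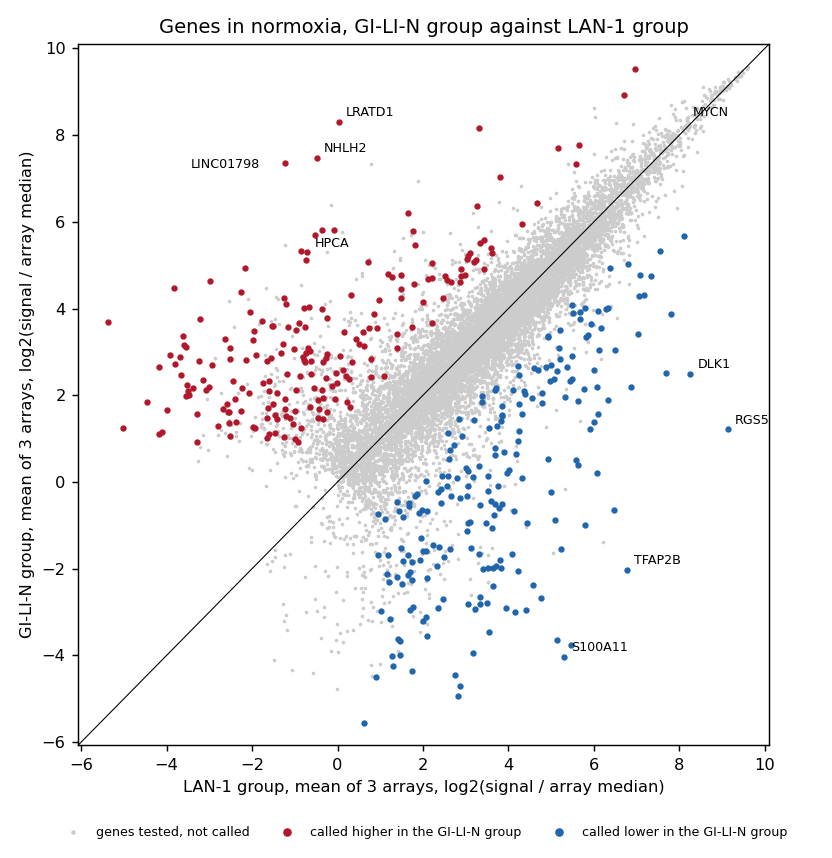
Mean log2(signal / array median) of the 3 arrays of the LAN-1 group (horizontal) and of the GI-LI-N group (vertical) for the genes tested, with the called genes in red (higher in the GI-LI-N group) and blue (lower) and the line of equal level. LRATD1 and NHLH2 stand far above the line and RGS5 and TFAP2B far below it, while MYCN (log2 difference 0.70) lies close to it.

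Among the genes called higher in the GI-LI-N group, LRATD1 and NHLH2 came first. LRATD1, which encodes an LRAT domain protein, had signals of 32171, 25362 and 26888 in the GI-LI-N group and 107, 26.6 and 213 in the LAN-1 group. No line of the LAN-1 group came near any line of the GI-LI-N group, and the difference was 257-fold (log2 difference 8.27, standard error 0.75, adjusted p = 0.00424). NHLH2, a basic helix-loop-helix factor of developing neurons, had 11157, 19149.6 and 18501 against 172, 39.8 and 29.8. This was a 216-fold difference (log2 7.97, standard error 0.58, adjusted p = 0.00190).

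HPCA, the neuronal calcium sensor hippocalcin, had 2019.8, 5815 and 3592 in the GI-LI-N group and 57.96, 83.2 and 26.5 in the LAN-1 group (55.7-fold, adjusted p = 0.00424). TESC, a further calcium binding protein, had 2784, 4440.4 and 3663 against 13.6, 153 and 46.6 (44.3-fold, adjusted p = 0.0160). EYA2, a transcriptional coactivator and phosphatase of the eyes absent family, had 1248, 2283 and 2664 against 9.71, 2.61 and 7.68, all 3 of the latter far below the array medians (38.3-fold, adjusted p = 0.00160). RBFOX3, the splicing factor known as the neuronal marker NeuN, was at 1742, 3645 and 3096 in the GI-LI-N group. In the LAN-1 group it was at 173, 10.8 and 3.30, highest in SK-N-BE2(C) (36.8-fold, adjusted p = 0.0281).

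GCHFR, which restrains the enzyme that starts tetrahydrobiopterin synthesis, was uneven within its high group, where it had 10135, 1441 and 1986 and GI-LI-N was the highest. In the LAN-1 group it had 31.5, 52.97 and 71.5 (47.2-fold, adjusted p = 0.0129). AFF3, a nuclear protein of the AF4 family, had 8003, 5321 and 2861 against 469.8, 21.2 and 47.6 and was thus present at a low level in SK-N-BE2(C) (45.8-fold, adjusted p = 0.0261). The remaining genes of the 12 largest were LINC01798, PHLDB2, which anchors microtubules at the cell cortex, PPP1R14A, an inhibitor of myosin phosphatase, and THSD7B, a thrombospondin domain protein. Their lowest signal in the GI-LI-N group was 1368 (THSD7B in IMR-32) and their highest in the LAN-1 group was 343 (LINC01798 in SK-N-F1). Without SK-N-SH, LRATD1, NHLH2, HPCA and EYA2 were still called, while the other 8 had adjusted p values of 0.0553 to 0.116 in limma. The log2 differences of these 8 were then 6.08 (TESC) to 8.52 (LINC01798).

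Among the genes lower in the GI-LI-N group, RGS5 came first. This regulator of G protein signaling, best known from pericytes, had 278, 106 and 291 in the GI-LI-N group and 61578, 38533 and 41903 in the LAN-1 group, where it was among the brightest genes. The difference was 243-fold (log2 -7.92, standard error 0.47, adjusted p = 0.00123), and 4 of the 6 tested probesets of the gene had the same sign. Of the 24 genes named here 11 had over 1 tested probeset, and RGS5 was the only gene of these whose probesets differed in sign. TFAP2B, an AP-2 transcription factor of the sympathetic lineage, had 30.5, 6.97 and 47.96 against 17723, 6443 and 6449. Its 3 probesets had the same sign and the difference was 186-fold (log2 -8.80, standard error 0.76, adjusted p = 0.00400).

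DLK1, a Notch ligand like protein of chromaffin and other endocrine cells, had 265, 331 and 1429 in the GI-LI-N group, with SK-N-SH the highest, and 9040.2, 42089.8 and 41795 in the LAN-1 group (53.8-fold, adjusted p = 0.0259). Of its 2 tested probesets 1 was called. SCG5, a chaperone of a prohormone convertase, was even within both groups, at 34.6, 63.3 and 51.9 and 2939, 2700.3 and 2792 (53.3-fold, adjusted p = 0.00123). S100A11, a calcium binding protein, spanned 471, 5471 and 13460.4 within the LAN-1 group but was at 11.3, 4.53 and 3.06 in the GI-LI-N group (68.1-fold, adjusted p = 0.0145). HDAC9, a class II histone deacetylase, had 39.00, 25.4 and 27.8 against 5887, 5083 and 994, lowest in LAN-1 among the latter (64.7-fold, adjusted p = 0.00424).

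IL13RA2, a decoy receptor for interleukin 13, had 4.45, 2.57 and 30.5 in the GI-LI-N group and 1913, 2536 and 5147 in the LAN-1 group (61.02-fold, adjusted p = 0.00826). TMOD1, which caps the pointed ends of actin filaments, had 108, 92.6 and 104 and 3336, 8045 and 6283 (58.4-fold, adjusted p = 0.00295). Both genes kept a wide gap between the lowest LAN-1 group line and the highest GI-LI-N group line. The others of this direction were PRSS3, a trypsinogen whose probes may also read related trypsin genes, STOM, the membrane protein stomatin, TSPYL5, a nucleosome assembly like protein, and LUM, the matrix proteoglycan lumican. Their highest signal in the GI-LI-N group was 90.9 (PRSS3 in IMR-32) and their lowest in the LAN-1 group was 674 (LUM in SK-N-F1). Without SK-N-SH, 10 of these 12 genes were still called, and STOM and S100A11 had adjusted p values of 0.0724 and 0.0708 in limma. The log2 differences of STOM and S100A11 were then -6.68 and -9.01.

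**Figure D3:**
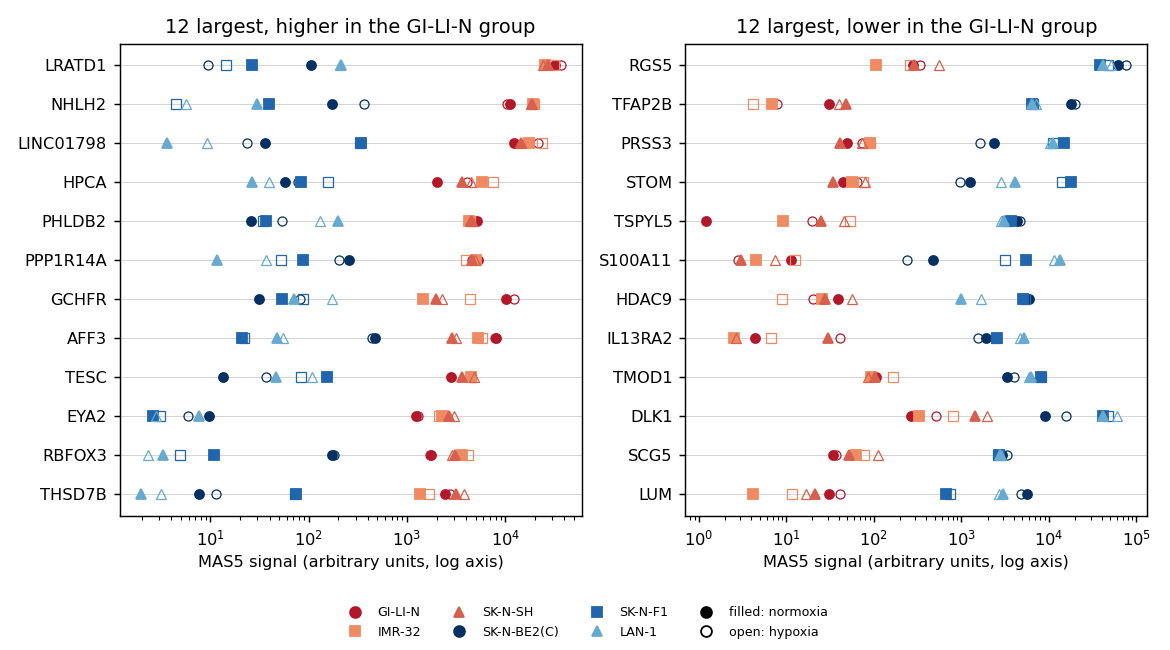
MAS5 signals (horizontal log axis, arbitrary units) of the 12 called genes with the largest difference in each direction, 1 row per gene, red for the 3 lines of the GI-LI-N group and blue for the LAN-1 group, filled for normoxia and open for hypoxia. The red and blue points stand apart in every row, and all 24 genes differed at least 2-fold the same way in hypoxia.

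The catecholamine pathway was lower in the GI-LI-N group at 4 of its 15 tested genes and higher at none (background 3.53% of all genes), and 11 were not called. The median difference of the list was -1.26, against -0.03 over all genes. DDC, the decarboxylase that makes dopamine, had 1203, 579.6 and 1179 in the GI-LI-N group and 8317, 10062 and 15296 in the LAN-1 group (log2 difference -3.63, standard error 0.50, adjusted p = 0.0139). PTS, an enzyme of the cofactor tetrahydrobiopterin, had 1539.8, 1391 and 1205 against 6798, 3936 and 6582 (log2 -2.13, adjusted p = 0.0213). SCG2, a granin of dense core vesicles, had 3183, 1826 and 2338 against 9903, 18041 and 13589 (log2 -2.59, adjusted p = 0.0244).

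SLC18A1, the vesicular monoamine transporter of chromaffin cells, was low throughout, at 24.8, 9.09 and 6.36 and 80.5, 317 and 185 (log2 -3.99, adjusted p = 0.0325, 3.50-fold with the floor). With signals under 50 set to 50 throughout it was no longer called (adjusted p = 0.139 in limma). TH and CYB561, which supplies electrons to DBH inside the vesicle, did not overlap between groups but had adjusted p values of 0.166 and 0.122. CYB561 had 372, 109 and 322 against 757, 8108 and 12028. DBH overlapped between the groups (log2 -0.55, adjusted p = 0.814), with SK-N-BE2(C) the lowest of all 6 lines. Without SK-N-SH none of the 4 was called by limma, with adjusted p values of 0.0534 for DDC, 0.105 for PTS, 0.101 for SCG2 and 0.131 for SLC18A1. Their log2 differences were then -3.88, -2.11, -2.66 and -3.66 in that order.

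**Figure D4:**
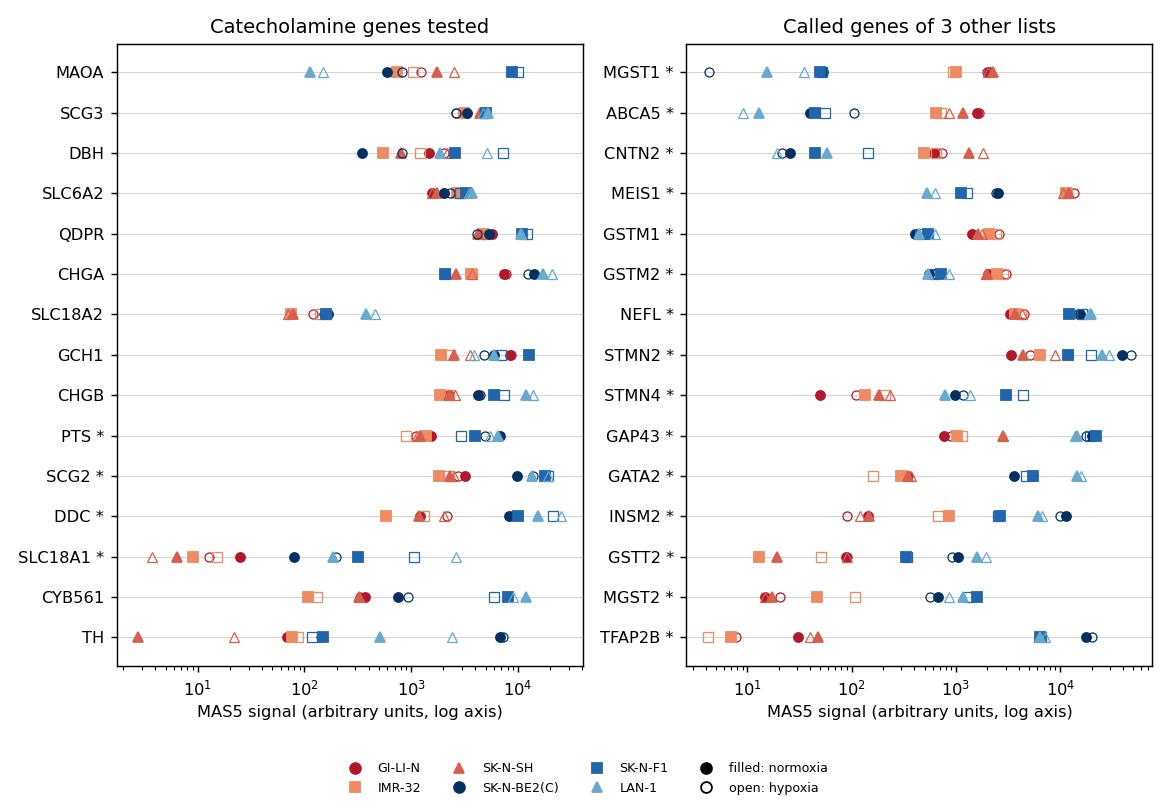
MAS5 signals (horizontal log axis, arbitrary units) of the 15 tested catecholamine genes (left) and of the called genes of the lists for adrenergic transcription factors, for neuronal cytoskeleton and axon genes and for ABC transporters and glutathione enzymes (right), red for the GI-LI-N group and blue for the LAN-1 group, filled for normoxia and open for hypoxia, with called genes starred. DDC, PTS, SCG2 and SLC18A1 are starred on the left, and TH is spread from 2.75 in SK-N-SH to 6808 in SK-N-BE2(C).

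Of 23 adrenergic transcription factors tested, 1 was higher in the GI-LI-N group, 3 were lower and 19 were not called (background 3.53% of all genes, median -0.17). MEIS1, a TALE homeobox factor, was higher, with 11313, 11274 and 12047 against 2536, 1109 and 532 (log2 3.23, standard error 0.46, adjusted p = 0.0152). GATA2, a zinc finger factor of sympathetic precursors, was lower, with 337, 296 and 349.5 against 3633, 5467 and 14614 (log2 -4.44, adjusted p = 0.0152). INSM2, a zinc finger repressor of neuroendocrine cells, was lower as well, with 143, 854 and 147 against 11244, 2628 and 6125 (log2 -4.53, adjusted p = 0.0297), next to TFAP2B above. Its paralog INSM1 was not called and had the opposite sign (log2 2.55, adjusted p = 0.108). Without SK-N-SH only TFAP2B of the 4 was still called by limma, and the adjusted p was 0.0788 for MEIS1, 0.0691 for GATA2 and 0.124 for INSM2. The log2 differences of these last genes were then 3.13, -4.57 and -4.19.

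In the remaining lists reported here CHAT, MFNG, GAP43, PPP1R9A, MGST1, MGST2, ABCA5, PCDHB16, DCN and NBAS, beside the genes above, were still called without SK-N-SH. The other called genes that the selection rule named from these lists were not called by limma without that array, with adjusted p values of up to 0.162. None of them changed sign. Leaving out GI-LI-N or IMR-32 instead lost 45 and 46 of the 72 named calls, against 47 here. Lists with 4.17% to 6.25% of their tested genes called lie close to the 3.53% of all genes. These are the lists for ion channels, the Wnt pathway, receptor kinases, mesenchymal genes, collagens and integrins, the MEIS1 neighbours, LIN28B and let-7 targets, and MHC class I, and their counts are given as descriptions.

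Acetylcholine genes gave 1 call among 7 tested (background 3.53% of all genes). CHAT, which makes acetylcholine, had 388, 381 and 417 in the GI-LI-N group and 7.94, 3.66 and 17.2 in the LAN-1 group (log2 5.54, standard error 0.61, adjusted p = 0.00754). All 3 lines of the LAN-1 group were far below the array median, so only the floored fold of 7.69 should be read as a size. CHRNA3, a subunit of the ganglionic nicotinic receptor, was bright in both groups (log2 0.30, adjusted p = 0.903).

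Genes of the neuronal cytoskeleton and axon gave 5 calls among 32 tested, 4 lower and 1 higher (background 3.53% of all genes), with a median of -0.04. GAP43, a growth cone protein, had 770.5, 1017 and 2813 in the GI-LI-N group and 19999, 21912 and 14634 in the LAN-1 group (log2 -3.93, standard error 0.56, adjusted p = 0.0152). NEFL, the light neurofilament subunit, had 3277, 3666 and 3681 against 15391, 12246 and 19777 (log2 -2.23, adjusted p = 0.0226). STMN2 and STMN4, stathmins that bind tubulin in neurons, were lower with log2 differences of -2.42 and -3.74 (adjusted p = 0.0448 and 0.0425).

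CNTN2, an axonal cell adhesion molecule, was called higher, at 610.1, 499.9 and 1345 against 25.7, 44.4 and 58.4 (log2 4.10, adjusted p = 0.0168). Axon guidance genes gave 3 calls among 28, all lower (background 3.53% of all genes called). These were SEMA3C, a secreted semaphorin (log2 -6.84, 26.4-fold with the floor), ROBO2, a receptor for SLIT (log2 -4.27) and EFNA1, an ephrin (log2 -2.87). Their signals in the GI-LI-N group were at most 61.6. With the floor ROBO2 was 8.35-fold and EFNA1 3.92-fold lower, and CNTN2 was 12.8-fold higher. The only tested probeset of EFNA1 was not called in the fit over all probesets. Of 27 synaptic vesicle genes none was called by limma, and of 24 ion channels 1 was, HCN4, a pacemaker channel, at 483, 363 and 458 against 81.3, 67.3 and 98.2 (log2 2.31, adjusted p = 0.0191).

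Notch pathway genes were called in both directions. Of 22 tested, 2 were higher and 2 lower in the GI-LI-N group (background 3.53% of all genes, median 0.41). MFNG, a glycosyltransferase that modifies Notch receptors, had 718, 788 and 756 against 106, 31.8 and 39.3 (log2 3.79, standard error 0.41, adjusted p = 0.00712), and HES4, a target of the pathway, had 242, 575 and 211 against 17.7, 6.01 and 23.8 (log2 4.40, adjusted p = 0.0152). With the floor MFNG was 12.1-fold and HES4 6.02-fold higher. HEY1, a further target, was lower, at 212, 166 and 347 against 2385, 5462 and 11652 (log2 -4.63, adjusted p = 0.0215), as was DLK1. In the Wnt pathway 1 of 24 tested genes was called, FZD6, a Frizzled receptor, at 75.6, 82.9 and 50.9 against 379, 870.2 and 662 (log2 -3.24, adjusted p = 0.0152).

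Of 21 receptor tyrosine kinases and neurotrophin receptors 1 was called (4.76%, close to the 3.53% of all genes). GFRA2, the co-receptor of neurturin, had 2343, 4299 and 3983 in the GI-LI-N group and 696, 989 and 506 in the LAN-1 group (log2 2.18, standard error 0.41, adjusted p = 0.0413). GFRA1, the co-receptor of GDNF, had 564, 334 and 2114 against 16.1, 83.4 and 21.3 and missed the limit (adjusted p = 0.0505), while RET, the kinase both act through, had 279, 99.5 and 160.1 against 425, 1683 and 1384 (log2 -2.70, adjusted p = 0.109). Among 12 IGF genes IGFBP5, an IGF binding protein, was called, at 4115, 2551 and 6182 against 1059.8, 868 and 619 (log2 2.18, adjusted p = 0.0436). Its 4 tested probesets had the same sign, but only 1 was called. IGF2BP2, an oncofetal RNA binding protein, was the 1 call among 17 LIN28B, let-7 target and related genes (log2 2.04, adjusted p = 0.0482). Its only tested probeset was not called in the fit over all probesets.

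Imprinted genes gave 5 calls among 20 tested (background 3.53% of all genes), with a median of -0.09. NDN, a MAGE family protein of neurons, had 13.5, 42.00 and 37.9 in the GI-LI-N group and 1836, 4420.4 and 341 in the LAN-1 group (log2 -5.76, standard error 0.91, adjusted p = 0.0216). PPP1R9A, an actin binding protein of neurons, was lower too (log2 -5.88, adjusted p = 0.0121), next to DLK1. GRB10, an adaptor of insulin signaling, had 962, 700.5 and 767 against 111, 46.2 and 7.65 (log2 4.46, adjusted p = 0.0324), and DIRAS3, a small GTPase, had 294, 267 and 567 against 5.82, 3.24 and 21.1 (log2 5.49, adjusted p = 0.0152). These last 2 were the higher ones. With signals under 50 set to 50 the folds were 29.3 for NDN, 14.4 for PPP1R9A, 12.7 for GRB10 and 6.91 for DIRAS3.

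Among 14 HOX genes tested HOXC10 was called lower, at 42.1, 6.36 and 10.1 against 537, 1182 and 895 (log2 -5.99, standard error 0.74, adjusted p = 0.0106, 17.3-fold with the floor). It was the 1 call of the list (background 3.53% of all genes). HOXC9, HOXC6, HOXC5 and HOXC8 of the same cluster were not called, with log2 differences of -2.55, -2.44, -1.57 and -1.29. The HOX median was -1.43. HOXC6 and HOXC9 were uneven within the GI-LI-N group, where GI-LI-N had 2147 and 515 and IMR-32 242 and 61.1.

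Protocadherins and cadherins, cell adhesion proteins of neurons, gave 6 calls among 23, with 2 higher and 4 lower (background 3.53% of all genes, median -1.58). PCDH8 had 828, 702 and 468 in the GI-LI-N group and 61.1, 24.3 and 70.1 in the LAN-1 group (log2 3.68, standard error 0.47, adjusted p = 0.0120), and CDH7 had 326, 401 and 721 against 63.2, 2.82 and 4.46 (log2 5.52, adjusted p = 0.0393). PCDH9 was lower, at 162, 212 and 232 against 1006, 3556 and 1096 (log2 -3.08, adjusted p = 0.0398), as were PCDHB7 and PCDHB16 of the beta cluster (log2 -2.22 and -5.62) and PCDHB6. With signals under 50 set to 50 the folds were 10.4 for PCDH8, 8.68 for CDH7, 4.53 for PCDHB7 and 18.2 for PCDHB16. Probes of the beta cluster may read several of its near identical members.

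Genes of the matrix and of mesenchymal cells were mostly not called. Of 8 fibroblast markers tested 3 were lower in the GI-LI-N group, namely LUM, DCN and THY1 (background 3.53% of all genes called), and none was called higher, though 3 were at least 2-fold higher and 5 at least 2-fold lower. FBLN1, the matrix protein fibulin, was the brightest of the list in the GI-LI-N group, at 2189, 3188 and 3783 against 1579, 274 and 397 (log2 2.32, adjusted p = 0.101), and COL1A1, a chain of type I collagen, had 1447, 818 and 1089 against 114, 107 and 1045 without being called. DCN, the matrix proteoglycan decorin, had 67.6, 21.6 and 70.3 against 798, 691 and 634 (log2 -4.01, standard error 0.52, adjusted p = 0.0120). THY1, a surface glycoprotein of neurons as well as fibroblasts and also a member of the cell surface list, had 366, 345 and 308 against 1849, 1786 and 2145 (log2 -2.60, adjusted p = 0.00962). In the 5 remaining lines LUM lay between 1134 and 3620 and DCN between 114 and 2070, while the LAN-1 group had 674 to 5640 and 634 to 798. Of 21 genes for GD2 synthesis and cell surface targets DLK1 and THY1 were the 2 calls (background 3.53% of all genes, median 0.11). YAP1, a defining gene of the adherent lines at 2482 or more there, was at most 236 in all 6 lines compared here.

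Of 21 mesenchymal state genes S100A11 alone was called, and S100A10 missed the limit, at 27.3, 12.3 and 68.6 against 292, 15588 and 4382 (adjusted p = 0.0687). Of 20 collagens, integrins and laminins ITGA4, an integrin of leukocytes and neural crest, was higher, at 819, 904 and 1258 against 206, 48.8 and 75.7 (log2 3.32, adjusted p = 0.0179). Of 16 MHC class I genes HLA-C was lower, at 75.4, 75.3 and 48.7 against 391, 2653 and 944 (log2 -4.03, standard error 0.74, adjusted p = 0.0368). The list had a median of -0.91 and 7 members at least 2-fold lower without a call for 6 of them, and HLA probes may read more than 1 class I gene.

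Of 32 ABC transporters and glutathione enzymes 4 were higher in the GI-LI-N group and 2 lower (background 3.53% of all genes). MGST1, a microsomal glutathione transferase, had 2074, 993 and 2244 against 53.3, 49.99 and 15.6 (log2 5.49, standard error 0.53, adjusted p = 0.00543). Its relative MGST2 went the other way, at 14.9, 46.9 and 17.2 against 676, 1586 and 1174 (log2 -5.66, standard error 0.59, adjusted p = 0.00665). Both paralogs were thus at opposite levels in the same lines. With signals under 50 set to 50 the folds were 31.6 for MGST1, 22.5 for MGST2, 20.7 for ABCA5 and 14.5 for GSTT2. ABCA5, a lipid transporter, had 1591, 644 and 1171 against 39.9, 44.6 and 12.97 (log2 5.12, adjusted p = 0.00637), GSTM2 and GSTM1 were higher and may share probe signal, and GSTT2 was lower (log2 -4.96, adjusted p = 0.0290).

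Among death receptor and BCL2 family genes 2 of 24 were called (background 3.53% of all genes). TNFRSF10B, the TRAIL receptor DR5, had 2829, 4069 and 2299.9 in the GI-LI-N group and 73.9, 148 and 228 in the LAN-1 group (log2 4.36, standard error 0.57, adjusted p = 0.0120). CFLAR, which blocks caspase 8 at death receptors, had 133.4, 59.5 and 108 against 628, 703 and 933 (log2 -3.07, adjusted p = 0.0168). Its 8 tested probesets had the same sign, and 4 of them were called.

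No gene was called by limma among 13 of the MYC and MAX network, 28 of the cyclin, CDK and RB pathway, 14 of retinoic acid handling, 12 cancer testis genes and 11 housekeeping genes. The cancer testis genes had a median of -2.39, and members such as MAGEA6 were high in SK-N-F1 (9033) and LAN-1 (2025) but at 1.82 in SK-N-BE2(C). Housekeeping genes had a median of -0.05, with log2 differences of 0.10 for GAPDH and 0.19 for ACTB (adjusted p = 0.902 and 0.802).

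Several called genes were neighbours on a chromosome. The order of genes was taken from RefSeq, and the stretches below were chosen after their values were seen and are given as a description. On chromosome 2 the tested genes next to MYCN in order were LRATD1, NBAS, DDX1 and MYCNOS. NBAS, a protein of vesicle transport, had 33573, 21234 and 22643 in the GI-LI-N group and 633, 735 and 1177 in the LAN-1 group (log2 4.85, adjusted p = 0.00424). DDX1, an RNA helicase, had 70035, 68347 and 56864 against 12946, 6486 and 12937 (log2 2.56, adjusted p = 0.0153). The difference thus became smaller from LRATD1 toward MYCN, and MYCNOS and MYCN overlapped between groups.

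As background, DDX1 and NBAS are known to be amplified together with MYCN in part of the tumors. DNA copy number was not measured, and its part in these differences was not tested. Of the 38 tested genes in the wider neighbourhood of MYCN, 3 were called, all of them named here, and the median was -0.35.

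Also on chromosome 2, MEIS1 and the 4 tested genes after it were at least 2-fold higher in the GI-LI-N group. LINC01798, a long noncoding RNA beside MEIS1, had 12178, 17634 and 14404 against 35.6, 343 and 3.59, where SK-N-F1 was the highest of the latter (145-fold, adjusted p = 0.0253). LINC01799 and LINC01828 had log2 differences of 4.37 and 5.93 (adjusted p = 0.0289 and 0.0196). LINC01799 had 548, 267 and 156 against 41.5, 4.55 and 11.1, and LINC01828 had 1486, 894 and 499.8 against 67.6, 10.2 and 3.46. Most signals of the LAN-1 group were thus under 50, so both differences have no exact size. ETAA1, an activator of the checkpoint kinase ATR, had 2145, 1636 and 2522 against 658, 808 and 368 without being called (adjusted p = 0.0635). The flanking genes SPRED2 and C1D had log2 differences of -1.26 and -0.60, so the stretch of higher genes ended on both sides. Of 19 tested genes in the wider neighbourhood of MEIS1, MEIS1 was the only call of that list (median -0.06). LINC01799 and LINC01828 were named after their values were seen.

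In all, 15 runs of at least 5 neighbouring tested genes lay 2-fold or more to the same side, 4 of them higher and 11 lower in the GI-LI-N group, holding 103 of the 11577 genes that could be placed. Genes at least 2-fold higher made up 9.96% of all genes and those at least 2-fold lower 10.6%. The longest run, from TLCD5 to TMEM218 on chromosome 11, held 18 genes lower in the GI-LI-N group, with a median of -1.48. Of these, 15 did not overlap between groups and 5 were called (23.5% and 3.53% of all genes), which the choice of genes at least 2-fold lower already favors. Among the 5 were NRGN, a calmodulin binding protein of neurons, at 34.4, 14.9 and 56.02 against 1143, 565 and 566, and SPA17 at 196, 120.2 and 152 against 913, 1321 and 984. A further 5 runs of lower genes lay on chromosome 11.

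On chromosome 19, 22 of 24 tested genes from PEG3 to ZNF587, most of them zinc finger genes, were at least 2-fold higher in the GI-LI-N group, with a median of 1.45 and 3 calls (1.7% of all genes were called higher). The stretch joins runs chosen as genes at least 2-fold higher, which fixes the first count and already favors the calls. In 22 of the 24, GI-LI-N itself had the highest of the 6 signals. ZNF776 had 4571, 2342 and 2802 against 629, 789 and 606, and ZNF551 4550.2, 2244 and 2528 against 823, 662 and 803. The median level relative to the mean of the 6 lines was 1.38 in GI-LI-N, 0.62 in SK-N-SH and 0.24 in IMR-32 on the log2 scale, so the line GI-LI-N stood apart from its own group here. Probes of zinc finger genes may read related family members.

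**Figure D5:**
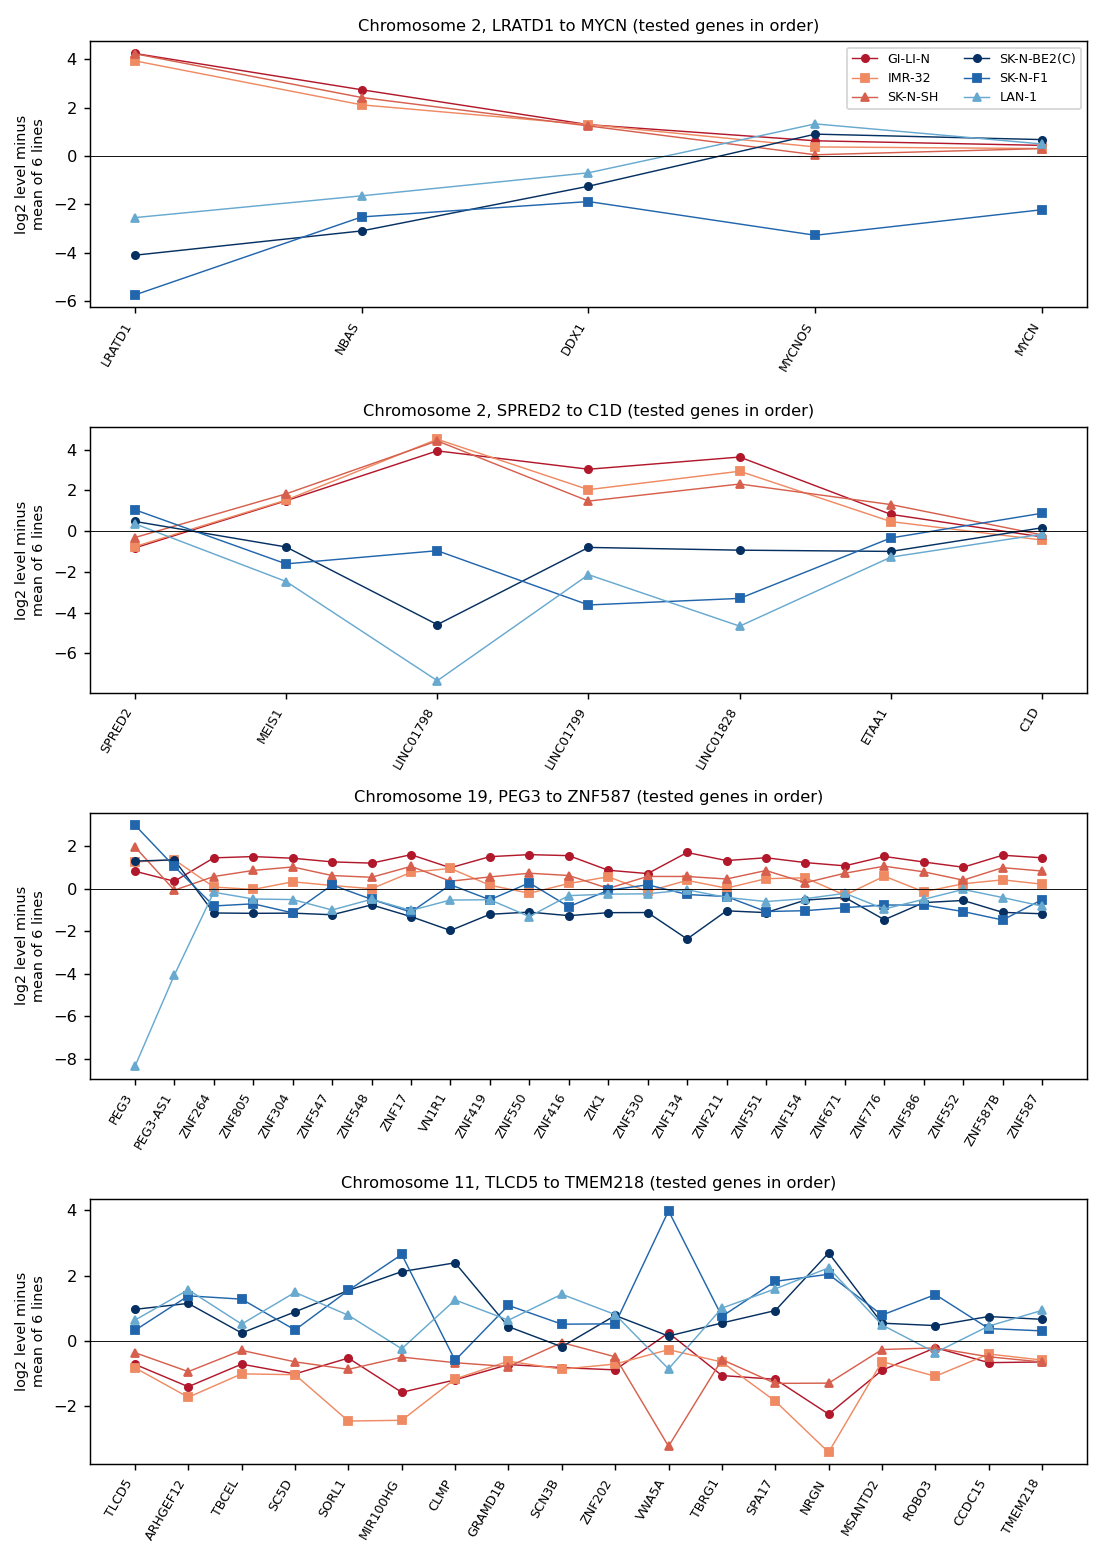
Log2(signal / array median) of each line in normoxia minus the mean of the 6 lines (vertical) for tested genes in chromosomal order (horizontal, evenly spaced) in 4 stretches, red for the GI-LI-N group and blue for the LAN-1 group. The red lines of the upper panels lie above the blue ones from LRATD1 to DDX1 and from MEIS1 to ETAA1, those on chromosome 19 lie above 0 at most genes with GI-LI-N on top, and those on chromosome 11 lie below 0 at nearly all genes.

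Each line of the LAN-1 group also had genes of its own. Counting genes at least 2-fold above or below all 5 other lines with signals under 50 set to 50, SK-N-F1 had 511 above and 318 below, LAN-1 had 326 and 182, and SK-N-BE2(C) had 100 and 366. The lines of the GI-LI-N group had far fewer, with 34 and 63 in GI-LI-N, 15 and 51 in IMR-32 and 77 and 27 in SK-N-SH. These counts are descriptions of single arrays, with no test. On the hypoxic arrays of the same lines 348 of the 511 genes of SK-N-F1 were again above all others, 181 of the 326 of LAN-1 and 207 of the 366 that were low in SK-N-BE2(C).

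In SK-N-F1 the germline genes MAGEA4 and MAGEA10 stood at 8943 and 4545, against at most 6.71 and 11.7 in the other 5 lines. GTSF1, a protein of the piRNA pathway, was at 11490.5 against 10.1 to 94.5. PCP4, a calmodulin regulator of Purkinje cells, was at 10392 against 1.88 to 93.4. These genes, together with ENTPD3, an ectonucleotidase, and PIRT, a regulator of sensory TRPV1 channels, were 92.8-fold to 194-fold above the nearest other line.

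In LAN-1 the matrix protein EDIL3 stood at 5875 against 5.42 to 42.8, and the adhesion molecule ICAM2 at 4715 against 19.3 to 124. RTN1, a reticulon of neuroendocrine cells, was at 3.95 in LAN-1 and at 4932 to 10600.2 in the others, and TCEAL7 and ARMCX2, both on the X chromosome, were at 33.6 and 8.28 against at least 3789 and 1634. MECOM, a zinc finger oncoprotein, was at 1464 against 7.33 to 80.97. LAN-1 thus lacked signal of genes that were bright in the 5 other lines.

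In SK-N-BE2(C) the matrix protein dermatopontin, DPT, stood at 3423 against 5.06 to 31.2, and ADM, a vasodilator peptide gene known to respond to hypoxia, at 4095 against 11.96 to 196. CDKN1A, the cell cycle inhibitor p21, was at 51.9 in SK-N-BE2(C) and at 1092 to 2340.4 in the others. FGF13, an intracellular fibroblast growth factor homolog, DACH1, a transcription factor, and PDE4B, a cAMP phosphodiesterase, were also lowest there, at 23.3, 187 and 47.3. In hypoxia CDKN1A remained at 21.4 against 959 to 1701.

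The 3 lines of the GI-LI-N group were not identical. Over the 11589 genes listed, 272 (2.35%) spanned at least 4-fold among these 3 arrays, against 1800 (15.5%) in the LAN-1 group, and 166 of the 272 did so in hypoxia too. PPP1R17, a phosphatase inhibitor of Purkinje cells, had 148, 115 and 8285 in normoxia and 229, 139 and 12334 on their hypoxic arrays. IFI16, an interferon inducible DNA sensor, had 191, 255 and 9596 and in hypoxia 291, 489 and 9832. Both were highest in SK-N-SH among these 3 lines, as was ADCYAP1, the neuropeptide PACAP, at 82.98, 289 and 2107. In the LAN-1 group IFI16 had 807, 2919 and 314 and ADCYAP1 5.62, 831 and 391.

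ARMCX1, a mitochondrial protein of the X chromosome, had 2435, 101 and 39.2, high in GI-LI-N and in all 3 lines of the LAN-1 group (2518, 3069 and 1881). INHBE, an inhibin subunit, had 1744, 47.3 and 140.3, and RAB31, a small GTPase of vesicle traffic, had 1581, 50.5 and 113, both highest in GI-LI-N among these 3 lines. RAB31 was as high in SK-N-F1 (1583). The same line of the 3 was highest on the hypoxic arrays for all 6 of these genes, which are those of the largest range, with 1 line named per gene.

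The hypoxic arrays of the same 6 lines gave a repeat measurement of the lines under the other oxygen condition. Of the 409 genes called in normoxia, 408 had the same sign there, 406 of them at least 2-fold, and 248 passed the test again. Among all 11601 genes 321 were called in hypoxia. How many of all genes kept their sign was not counted, and these arrays are not other lines. Among probesets 564 of 26506 were called in hypoxia (2.13%). The difference of the group difference between both conditions, tested as an interaction in limma, called 0 of 26506 probesets (0%), while 1608 passed an unadjusted p under 0.05. This does not show that oxygen acted alike in both groups, since 3 lines a group limit what can be seen. When differences were planted in simulated arrays of the same number, the normoxia comparison found 80 of 100 probesets at a log2 size of 4 but 19 of 100 at 2, and 5 of 26306 unchanged ones were called. The simulation did not cover the interaction. It gave both groups the same SD at each probeset, while the median SDs in the data were 0.31 and 0.56, so these rates are only a rough guide.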

How the data were processed

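RNA of 11 neuroblastoma lines, each kept for 18 h at 20% or 1% O2, was read on HG-U133 Plus arrays, 1 array per line and condition. The deposited intensity values are MAS5 signals that the authors scaled to 500, and no detection calls were used here. Of 54675 probesets 41091 name 1 gene, 1801 several and 11783 none or a control, and each gene was read from its brightest probeset that names it alone. Columns of other series numbered 0.

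Signals were divided by the array median, put on the log2 scale and compared between both groups with limma 3.58.1 in R 4.3.3 (eBayes, Benjamini-Hochberg), for probesets and genes with a mean signal of at least 100 on the 6 arrays. Called means an adjusted p under 0.05 and at least 2-fold. Tables were made in Python 3.11.15 with numpy 2.4.6 and pandas 2.3.3. The 62 control probesets were left out after a first fit that held them had called 745 probesets. The members and the 32 gene lists were chosen with earlier results of these data known. Named genes are the 12 largest called differences in each direction with signals under 50 set to 50, the members lowest in adjusted p from every list (5 at most), MYCN, TH, DBH, GAPDH and ACTB, and 6 genes each for single lines and for the spread within the GI-LI-N group. Of the genes tested 12 are not listed. The result of 1 of the gene lists is not reported here. Each line gave 1 array per condition, so p-values measure the spread between lines, and the number of arrays limits the precision. That spread was known to be small in the GI-LI-N group when the lines were chosen, so the p-values can be too small. Whether its arrays come from independent lines was not tested. The fit was tested on simulated data. Alternatives were other scaling, floors and filters, the GI-LI-N group as 1 line, the methods' t-test, all 11 normoxic arrays, both arrays of each line, the mean of all probesets, and each line left out.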

Additional observations from a re-analysis of the deposited data

How the results depend on the processing

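The count of called genes (409) depended on the test and on the lines that entered it. With the 3 arrays of the GI-LI-N group averaged into 1 line, which leaves 1 sample on that side and few degrees of freedom, limma called 0 probesets and 0 genes (1317 and 603 at an unadjusted p under 0.05 and 2-fold), and the methods' t-test, with the lines separate, 4 and 1. An adjusted p under 0.01 left 187 probesets and 83 genes, no filter on the mean signal 204 and 183, and all 11 normoxic arrays in the fit 321 and 202. Setting signals under 50 to 50 gave 1126 probesets and 553 genes, 397 of these among the 409. Leaving out 1 line gave 234 to 1169 probesets and 104 to 619 genes, lowest without SK-N-SH and highest without SK-N-BE2(C), and 189 to 919 probesets on the hypoxic arrays with the same lines at both ends. With fewer lines the fits have fewer arrays, and the cause was not tested further. The values as deposited, quantile normalization, a mean signal of at least 200, both arrays of each line and the mean of all probesets kept the gene count between 349 and 431, and keeping the control probesets gave 409. Of 72 named called genes none reversed. Among genes not called, the log2 difference with 1 line left out ran from -0.24 (without SK-N-F1) to 1.21 for MYCN, from -1.59 to 0.0371 (without SK-N-F1) for DBH, from -3.84 to 0.34 (without SK-N-F1) for SLC5A7, from -0.75 (without SK-N-BE2(C)) to 0.89 for CHRNA3 and from -0.55 to 0.21 (without LAN-1) for SDHA, and it was 0.39 for HPRT1 with the mean of all probesets. The cause of these turns was not tested. The interaction with oxygen called 0 probesets under every setting it was run with. That fit was paired by line, as each line has an array in both conditions. For the comparison between the groups themselves the following holds. No paired analysis was possible because their lines are different and the labels pair none of them. Signals under 50 carry little information, so differences that rest on them have no exact size.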

Other observations

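Calls by chromosome are given here as counts for chromosomes picked for their high or low shares. Whether the calls were spread unevenly over the chromosomes was not tested. Chromosome 8 had 21 of 430 tested genes called lower in the GI-LI-N group (4.88%) and 11 called higher. Chromosome 5 had 18 of 529 lower (3.40%), and chromosome 11 had 22 of 658 lower (3.34%) and 8 higher. Chromosome 22 had 11 of 282 higher (3.90%) and 2 lower. On chromosome 18, 5 of 165 were higher and 0 lower, and on chromosome 21 limma called 0 of 114 genes in either direction. Over all tested genes 1.7% were called higher and 1.83% lower. Neighbouring genes are not independent of each other, and DNA copy number was not measured.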
